A study of Homo sapiens with 6 samples.

Results

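Human chromosome 19 carries 249 protein-coding genes of the count table whose symbol is ZNF followed by a digit, out of 58978 genes in all. They were chosen by biotype, chromosome and symbol alone, so no measured value entered the choice. The study compared HT29 cells, an established human colon cancer line, carrying a control hairpin (shCTRL, 3 libraries, genotype given as WT) with HT29 cells carrying a hairpin against FITM2 (shFITM2, 3 libraries, genotype given as FITM2 knockdown). Both groups are labelled untreated and grew in McCoy's 5A medium with serum and antibiotics, and RNA sequencing of total RNA was the readout. The labels do not say whether each group was a clone or a pool, nor how many hairpins were used. FITM2 is a membrane protein of the endoplasmic reticulum that lipid droplets need in order to bud.

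Most genes of this kind encode C2H2 zinc finger proteins, in which each finger is a short loop held by a zinc ion and rows of fingers read DNA. The majority also carry a KRAB domain, which recruits the scaffold protein TRIM28 and through it the histone methyltransferase SETDB1 and HP1 proteins, and the complex silences retrotransposons and other loci by heterochromatin. The genes multiplied by tandem duplication and lie side by side in clusters, so neighbours often have very similar sequences.

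A KRAB A-box pattern was found in the translated coding sequence of 209 of the 248 genes with a coding transcript. Successive fingers are joined by a linker of 5 amino acids, and its 15 coding bases are among the most repeated sequences of the family. The bases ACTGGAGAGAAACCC were the most frequent first linker, in 37 of 233 genes with a linker match. On the mRNA strand they occurred in the transcripts of 98 of 248 of these genes (39.5%) and in 70 of 19436 other coding genes (0.360%), up to 18 times in one gene. The first finger with its linker is given here for genes that stand at different ends of the comparison: ZNF430, ZNF714 and ZNF91 fell in shFITM2, ZNF544 fell and ZNF552 rose with and without an adjustment for base composition, ZNF226 belongs to a cluster whose genes were called higher mostly after that adjustment, and ZNF784 rose before it and not after it. Each runs 5′ to 3′ on the coding strand from the first cysteine codon of the finger to the first cysteine codon of the next, within 1 coding exon, and capitals mark the linker.
ZNF430: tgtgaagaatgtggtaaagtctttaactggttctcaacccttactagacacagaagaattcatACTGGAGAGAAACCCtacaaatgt
ZNF714: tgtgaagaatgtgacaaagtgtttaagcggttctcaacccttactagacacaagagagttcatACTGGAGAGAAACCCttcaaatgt
ZNF91: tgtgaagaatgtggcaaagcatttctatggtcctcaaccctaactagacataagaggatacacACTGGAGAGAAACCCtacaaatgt
ZNF544: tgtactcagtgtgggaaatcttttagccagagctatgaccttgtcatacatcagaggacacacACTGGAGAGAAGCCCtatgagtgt
ZNF552: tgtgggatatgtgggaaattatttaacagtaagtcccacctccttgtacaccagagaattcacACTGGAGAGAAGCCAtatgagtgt
ZNF226: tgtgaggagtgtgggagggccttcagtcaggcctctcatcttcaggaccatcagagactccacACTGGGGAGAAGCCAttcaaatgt
ZNF784: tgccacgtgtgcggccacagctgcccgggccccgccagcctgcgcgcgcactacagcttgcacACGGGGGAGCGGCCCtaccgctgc
On GRCh38 these lie at chr19:21057011-21057097 (+) for ZNF430, chr19:21117187-21117273 (+) for ZNF714, chr19:23362091-23362177 (-) for ZNF91, chr19:58261750-58261836 (+) for ZNF544, chr19:57808370-57808456 (-) for ZNF552, chr19:44176355-44176441 (+) for ZNF226 and chr19:55622330-55622416 (-) for ZNF784. Aligned without gaps, ZNF430 and ZNF714 had the same base at 78 of 87 positions, ZNF430 and ZNF91 at 73, and ZNF430 and ZNF784 at 41. The GC content of the printed stretch was 37.9% in ZNF430, 40.2% in ZNF714 and 41.4% in ZNF91, against 75.9% in ZNF784.

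The libraries held 16964075 to 18855731 counts. FITM2 itself lay at 13.25, 10.55 and 10.44 CPM (counts scaled to a common library size) in shCTRL and at 4.83, 5.98 and 4.95 CPM in shFITM2, a change of -1.12 on the log2 scale (SE 0.16, edgeR's quasi-likelihood test, adjusted p = 0.000242). All 10 colon epithelial markers passed the expression filter, with CDX2 at 0.649 to 1.96 CPM and CDX1 at 0.230 to 1.14 CPM, and their summed level ran from 9742 to 11739 CPM in shCTRL and from 13241 to 13972 CPM in shFITM2. Of 14 markers of fibroblasts, leukocytes, endothelium and red cells 3 passed the filter (COL1A1, CD14 and PECAM1), PDGFRB and HBB had no count, and the summed level was 12.3 to 14.9 CPM in shCTRL and 12 to 15.4 CPM in shFITM2. Fold changes followed base composition: the log2 level of a library relative to the mean of all libraries changed by -0.27, -0.34 and -0.06 per 10 points of transcript GC in shCTRL replicates 1 to 3 and by 0.26, 0.23 and 0.18 in the shFITM2 libraries. The third shCTRL library therefore stands apart from the other two. A second fit, called the GC offset, takes out the GC trend fitted in each library, and so would also take out a biological change that tracks GC. Counts are given in both fits.

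Of the 249 genes, 158 had enough reads to be tested and 91 did not. Among the 91, 50 had no read in any library and 41 had at least 1, with at most 19 reads in a library. Of the tested genes 149 were above the filter (0.559 CPM) in every library, and none passed through libraries of 1 group only. The tested genes were expressed at modest levels: scaled per length, as TPM (a share of all transcripts), the median in shCTRL was 5.19, against 14.1 over all tested genes. The range was 0.193 to 190 TPM, 43 of the 249 genes had a mean of at least 10 TPM in shCTRL, 4 had at least 50 and 106 lay under 1.

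The highest level per length belonged to ZNF146 (OZF, a protein made almost wholly of zinc fingers), at 190 ± 20.5 TPM in shCTRL and 137 ± 5.19 TPM in shFITM2 (SD, n = 3 in each). ZNF524 (75.3 ± 10.6 TPM in shCTRL), ZNF787 (56.0 ± 26.0), ZNF581 (55.8 ± 7.90), ZNF587 (46.9 ± 4.78), ZNF865 (39.4 ± 20.2), ZNF580 (35.6 ± 11.7) and ZNF579 (35.2 ± 13.3) were the others among the 8 highest over all libraries (SD, n = 3). Apart from ZNF146, the spreads of neighbours in this order overlap. Of these 8 genes ZNF587 alone matched the KRAB pattern.

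Expression varied along the chromosome, where 238 of the genes fell into 9 clusters (A to I, runs of at least 5 genes with starts no more than 1 Mb apart) and 11 lay outside. In cluster D (19.7 to 24.1 Mb, 37 genes, 35 with a KRAB pattern) only 14 genes were tested, and in cluster F (36.2 to 37.8 Mb, 26 genes) only 7. In cluster G (43.5 to 45.1 Mb) 20 of 24 were tested, in cluster H (51.6 to 53.6 Mb) 28 of 40, and in cluster I (55.5 to 58.5 Mb) 44 of 59. The genes without enough reads often lay next to each other. The longest run held 12 neighbours from ZNF43 to ZNF724 in cluster D, among which the highest count in any library was 1. A run of 9 from ZNF253 to ZNF85 in the same cluster reached at most 8 reads, a run of 8 from ZNF569 to ZNF573 in cluster F at most 14, and a run of 7 from ZNF582 to ZNF835 in cluster I had none. ZNF430 and ZNF714 lie between these runs of cluster D and had 52 to 119 and 193 to 388 reads per library. Promoters of 300 bases from RefSeq (GRCh38.p14) matched 217 of the genes, and the CG dinucleotide occurred a median of 21 times in those of tested genes, 18.5 times in those not tested and 14 times over all 27305 promoters. In bulk RNA, fewer cells expressing a gene and less RNA per cell cannot be told apart. Reads that fit several near-identical copies may be lost from, or shared among, members of these clusters: 70 of the 249 genes share at least 10% of their 50-base stretches with another gene.

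**Figure D1:**
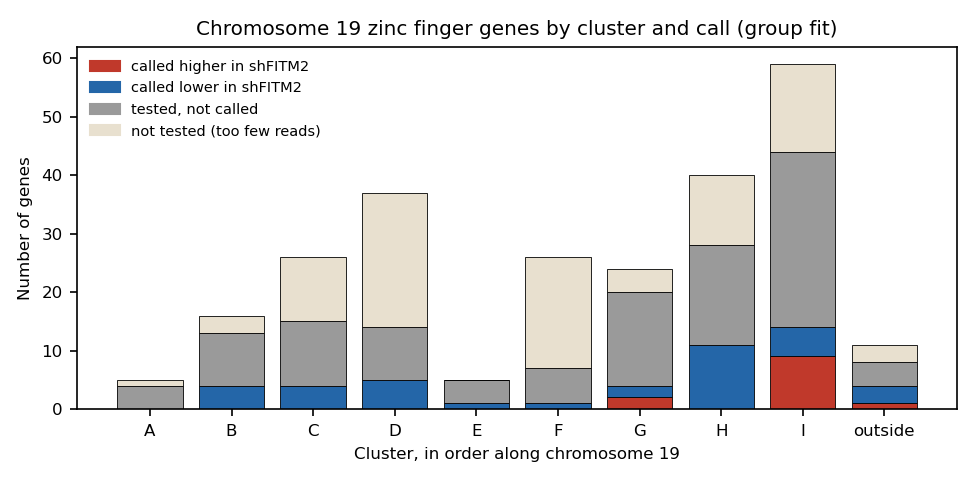
Number of chromosome 19 zinc finger genes (vertical axis) in each cluster in order of position, stacked by call in the group fit. Cluster D has 23 genes with too few reads to test and cluster F 19, while cluster E has none.

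The question for the tested genes was whether their mRNA differed between shFITM2 and shCTRL. In the group fit 36 of 158 fell and 12 rose. Over all 14809 tested genes 24.5% were called lower and 24.2% higher, 48.7% in all, so the share called lower here (22.8%) was near that of all genes and the share called higher (7.59%) was below it. The median log2 fold change was -0.16, against -0.00 for all tested genes. The libraries of the 2 groups did not overlap for 46 genes lower in shFITM2 and 22 higher (over all tested genes 29.9% and 29.1%). Changes of at least 2-fold were called for 2 genes upward, ZNF581 and ZNF444, and for 3 downward, ZNF154, ZNF14 and ZNF223 (over all tested genes 4.31% and 0.952%). Without the third shCTRL library the counts were 56 lower and 24 higher, and without the second shFITM2 library 19 lower. The calls over all tested genes moved the same way, to 4503 lower and 4505 higher and to 2827 lower. With all libraries they were 3622 lower and 3583 higher.

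With the GC offset, 14 of the 158 genes were higher and 10 lower (over all genes fitted 11.8% and 17.4%, 29.2% in all), and the median was 0.03. Of the 36 genes that fell in the group fit, 5 were called lower in this fit too and 31 were not called. Of the 12 that rose, 5 were called higher and 7 were not called. No gene was called in opposite directions, 9 genes were called higher and 5 lower only with the offset, and 96 were called in neither. The share called in the same direction in both fits over all genes was 7.91% higher and 10% lower. A version of the offset centred on 0 in each library, chosen after seeing the data, gave 17 higher and 5 lower among these genes and 2218 higher and 1736 lower over all genes, against 1732 and 2542 with the main offset. Without the first shFITM2 library the GC offset called 5 higher and 3 lower, and over all genes 1110 higher and 1696 lower.

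The family's summed output did not differ between groups beyond the spread: 2491 ± 12.4 CPM in shCTRL and 2487 ± 47.1 CPM in shFITM2 (SD, n = 3 in each), a ratio of 0.998. Without the 5 most abundant genes (ZNF146, ZNF587, ZNF787, ZNF865 and ZNF444) the sums were 1989 ± 28.2 and 1935 ± 46.5 CPM, a ratio of 0.973. The summed level of cluster H was 479 ± 31.4 CPM in shCTRL and 380 ± 24.2 CPM in shFITM2, and that of cluster I was 864 ± 85.6 and 1114 ± 4.54 CPM.

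**Figure D2:**
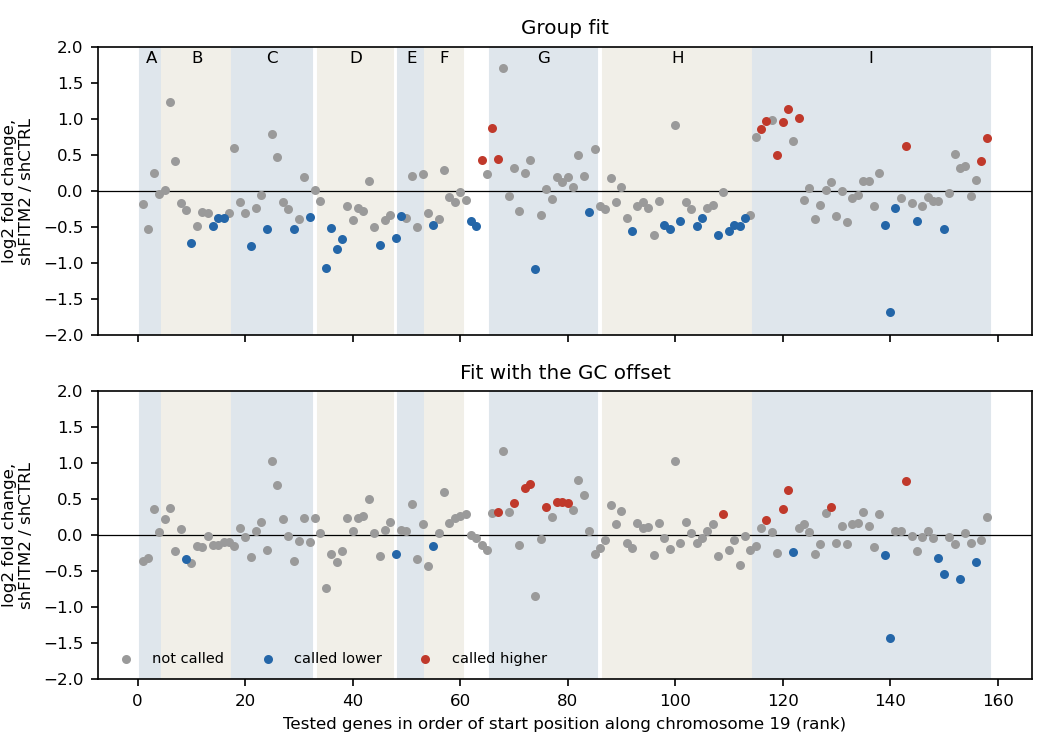
Log2 fold change (shFITM2 over shCTRL, vertical axis) of the 158 tested genes in order of position (rank, horizontal axis), in the group fit above and with the GC offset below; shading and letters mark clusters A to I. In the upper panel 36 genes are called lower across most clusters and 12 higher mainly in clusters G and I, and in the lower panel 8 of the 14 called higher lie in cluster G.

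The genes without a KRAB pattern and those with one had different medians in the group fit. Of 128 tested genes with the pattern, 30 fell (23.4%) and 3 rose (2.34%, ZNF552, ZNF324 and ZNF446), with a median of -0.20. Of 30 without it, 9 rose (30%) and 6 fell (20%), with a median of 0.47. Over all tested genes 24.5% fell and 24.2% rose. The share with the pattern that fell was thus near that of all genes, and the share that rose was below it. The 2 sets also differ in base composition, with a median transcript GC of 42.6% and 61.1%, and in their number of fingers, 13 and 8.5. With the GC offset 10 genes with the pattern were higher (7.81%) and 6 lower (4.69%), with a median of 0.04. Of those without the pattern 4 were higher and 4 lower (13.3% each, median -0.08). Over all genes fitted the shares were 11.8% and 17.4%. The bases that code for the fingers had nearly the GC content of the remaining transcript, 42.7% and 43.3% at the median over tested genes.

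Sorted by transcript GC, the calls changed side. None of the 28 tested genes under 40% GC rose and 12 fell, with a median log2 fold change of -0.39. Among the 74 genes from 40% to 45%, 21 fell and none rose (median -0.23), and from 45% to 50% 3 of 27 fell and 1, ZNF552, rose (median -0.09). At 50% GC or more, 11 of 29 rose and none fell (median 0.51). Across the 158 genes GC content and the log2 fold change had a Pearson r of 0.71 and a Spearman rho of 0.60, which is a description, since the genes share libraries and related sequences. Over all 14635 genes with a GC value r was 0.71 and rho 0.74. With the GC offset r was -0.07 for the zinc finger genes. Finger number went the other way, at r = -0.36 with the fold change and -0.36 with GC. Genes with at most 5 fingers had 6 of 10 called higher and none lower (median 0.85). Those with 6 to 10 had 5 of 47 higher and 14 lower (29.8%, median -0.09). With 11 to 15 fingers, 12 of 65 were lower (18.5%) and none higher (median -0.23). With 16 or more, 10 of 36 were lower (27.8%) and 1 higher (median -0.20). Over all tested genes 24.2% were called higher and 24.5% lower. With the GC offset r between finger number and fold change was -0.12. Genes with at most 5 fingers then had 4 higher and 0 lower (median 0.25). Those with 6 to 10 had 3 higher and 7 lower (median -0.03), and those with 11 to 15 had 2 and 3 (median 0.03). With 16 or more, 5 were higher (13.9%) and none lower (median 0.02), against 11.8% and 17.4% of all genes fitted.

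**Figure D3:**
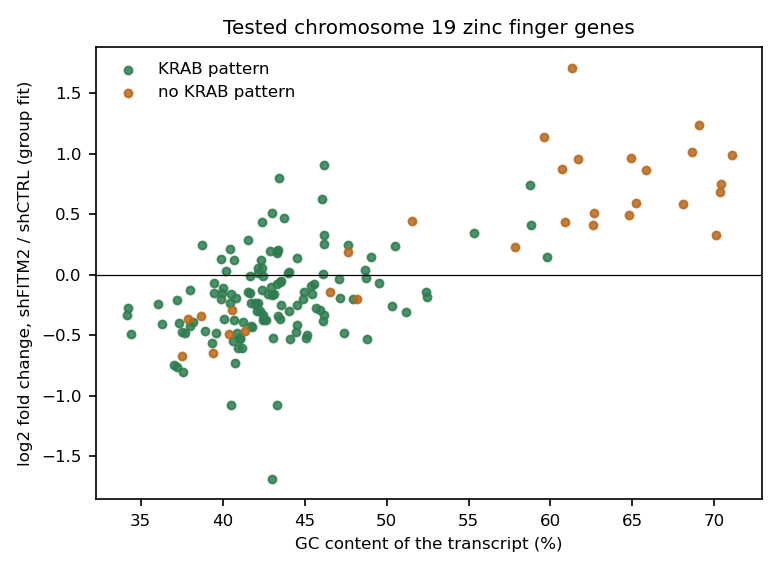
Log2 fold change in the group fit (vertical axis) against transcript GC content in percent (horizontal axis) for the 158 tested genes, coloured by KRAB pattern. Genes under 45% GC lie mostly below 0 and genes over 55% GC lie above 0.

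Most of the largest called rises lay close together, while the larger values of ZNF428 (1.71, cluster G) and ZNF358 (1.24, cluster B) were not called. The first 9 tested genes of cluster I, from ZNF628 to ZNF444, have no KRAB pattern and a median transcript GC of 65.9%. Of these, 6 rose, with a median of 0.95, while 24.2% of all tested genes rose. With the GC offset 3 of the 9 were higher, 1 lower, and the median was 0.09 (over all genes fitted 11.8% higher and 17.4% lower). ZNF581 (chr19:55635459-55645622, 4 fingers) had the largest called rise: 27.7, 26.8 and 34.4 CPM in shCTRL and 65.7, 67.5 and 62.6 CPM in shFITM2. The groups were far apart, at 1.14 on the log2 scale (SE 0.10, adjusted p = 3.23e-05), and 0.63 with the offset (SE 0.07, adjusted p = 6.85e-06). Its call held whichever library was left out, in both fits.

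ZNF580 (chr19:55635016-55643469, 3 fingers) overlaps ZNF581 and CCDC106 on the same strand, so their reads cannot be told apart where they overlap. It had 23.3, 24.3 and 40.3 CPM in shCTRL and 54.4, 57.2 and 58.5 CPM in shFITM2. The third control library was much nearer to the knockdown libraries than the other two, and the log2 fold change was 0.95 (SE 0.20, adjusted p = 0.00659), or 0.36 with the offset (SE 0.11, adjusted p = 0.0274). The call with the offset was lost without any of 4 libraries, at 0.26 without the first shCTRL library.

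ZNF524 (chr19:55600022-55603138, 4 fingers) had 28.6, 29.1 and 36.3 CPM in shCTRL and 64.9, 59.1 and 59.7 CPM in shFITM2. It overlaps FIZ1, which has about as many reads, on the other strand. The groups did not overlap, with 0.97 on the log2 scale (SE 0.10, adjusted p = 6.46e-05), and 0.21 with the offset (adjusted p = 0.0451), a call lost without any of 5 libraries, with length in the offset (adjusted p = 0.0832) and with the replicate block.

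ZNF444, a SCAN domain zinc finger protein (chr19:56132599-56160893), stood at 43.8, 36.3 and 52.9 CPM in shCTRL and 91.0, 90.2 and 86.7 CPM in shFITM2. The groups were apart (log2 fold change 1.01, SE 0.12, adjusted p = 0.000115), and its value with the offset was 0.09 (adjusted p = 0.390). ZNF579 (32.9, 23.9 and 50.4 CPM against 67.7, 61.8 and 65.2 CPM) had 0.86 (SE 0.26, adjusted p = 0.0368) and 0.10 with the offset. Its controls were widely spread, and the call was lost without any of 4 libraries, with values of 0.80 to 0.90, and without the expression filter. ZNF784 rose by 0.50 (12.5, 11.5 and 15.4 against 18.7, 19.4 and 17.5 CPM, adjusted p = 0.00679) and had -0.25 with the offset (adjusted p = 0.0689), so its direction turns.

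For ZNF865 and ZNF787, of the same stretch, the call turned on the third control library and on the tool. ZNF865 had 33.4, 34.7 and 76.7 CPM in shCTRL and 97.7, 94.3 and 94.4 CPM in shFITM2. All knockdown libraries were above all controls, but the third control was far above the other two, and the log2 fold change of 0.99 (SE 0.36) was not called (adjusted p = 0.0796). Without that library it was 1.48 and called, and the DESeq2 Wald test and limma-voom also called it with all libraries. ZNF787 had 48.9, 43.4 and 96.3 CPM against 100.4, 104 and 98.4 CPM. Its log2 fold change was 0.69 (SE 0.33, adjusted p = 0.147), 1.12 and called without the third control, and called by limma-voom with all libraries. With the offset it was -0.24 (adjusted p = 0.0217), the other direction. That call was lost without the third control (-0.14, adjusted p = 0.0560), without shFITM2 library 1 or 3 and with the centred offset.

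ZNF552 (chr19:57803841-57814913, 6 fingers and a KRAB pattern) was a riser of another kind, with a transcript GC of 46.0%. Its libraries read 29.7, 26.6 and 21.3 CPM in shCTRL and 41.8, 39.7 and 38.4 CPM in shFITM2. The groups were apart, at 0.63 in the group fit (SE 0.12, adjusted p = 0.00116) and 0.75 with the offset (SE 0.10, adjusted p = 4.33e-05), and both calls held without any one library. ZNF586 overlaps it on the other strand with fewer reads, a ratio of 0.45, and had a log2 fold change of -0.09. ZNF446, with SCAN and KRAB domains, rose from 6.78, 6.65 and 6.45 CPM to 11.6, 11.2 and 10.5 CPM (0.74, SE 0.13, adjusted p = 0.000725), with 0.25 under the offset (adjusted p = 0.17). It overlaps ZNF324 and shares 51.2% of its 50-base stretches with other genes, so the 2 values are not independent. All 5 genes called higher in both fits (ZNF581, ZNF552, ZNF576, ZNF580 and ZNF524) overlap another tested gene, as do 4 of the 5 called lower in both.

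**Figure D4:**
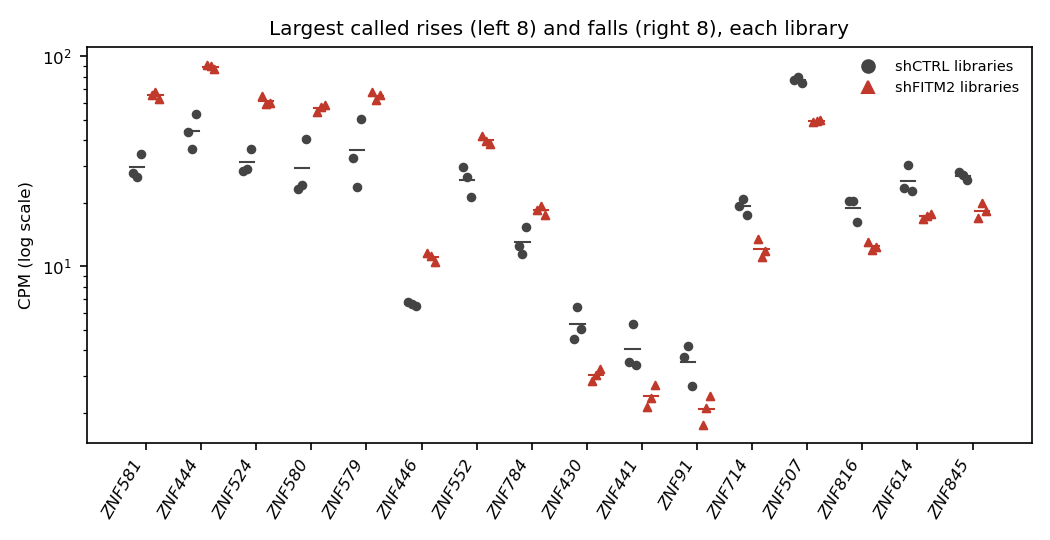
CPM in each library (logarithmic vertical axis) for the 8 largest called rises and the 8 largest called falls in the group fit with a mean of at least 2 CPM and no overlap between groups; horizontal bars are group means. Every shFITM2 library lies on one side of every shCTRL library, and one control library of ZNF580 and ZNF579 sits near the knockdown libraries.

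The falls were spread over more clusters. In cluster D (median -0.40, transcript GC 37.3%), 5 of 14 tested genes fell (35.7%) and none rose, against 24.5% and 24.2% of all tested genes. With the offset none of the 14 was called and their median was 0.04. ZNF91 (chr19:23304991-23395560), the repressor of SVA retrotransposons with 32 fingers, had 3.71, 4.16 and 2.70 CPM in shCTRL and 1.76, 2.13 and 2.42 CPM in shFITM2. The highest knockdown value was just under the lowest control, and the log2 fold change was -0.75 (SE 0.24, adjusted p = 0.0243). It was lost without any of 4 libraries, and the value was -0.29 with the offset (adjusted p = 0.370). ZNF430 (chr19:21020620-21060050) fell from 4.50, 6.44 and 5.04 CPM to 2.85, 3.05 and 3.24 CPM (-0.81, SE 0.20, adjusted p = 0.00603), with -0.37 under the offset (adjusted p = 0.168). ZNF714 (chr19:21082159-21125270) fell from 19.5, 21.0 and 17.5 CPM to 13.5, 11.1 and 11.9 CPM (-0.67, SE 0.12, adjusted p = 0.000915), with -0.23 under the offset (adjusted p = 0.134). ZNF14, a low gene at the edge of the cluster, fell by 1.08 (adjusted p = 0.00769), with -0.73 under the offset (adjusted p = 0.0722).

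Every one of the 40 genes of cluster H matched the KRAB pattern. Of its 28 tested genes 11 were lower (39.3%, against 24.5% of all tested genes) and none higher (against 24.2%), with a median of -0.29. With the offset 1 gene, ZNF160, was higher and none lower (median -0.02). ZNF816 (chr19:52949379-52962911) had 20.5, 20.4 and 16.2 CPM in shCTRL and 13.1, 12 and 12.3 CPM in shFITM2, a change of -0.61 on the log2 scale (SE 0.12, adjusted p = 0.00169). It was -0.28 with the offset, just outside the threshold (adjusted p = 0.0526). ZNF614 (23.6, 30.3 and 22.8 against 16.9, 17.3 and 17.8 CPM) fell by 0.56 and ZNF845 (28.0, 27.2 and 25.9 against 17, 20.01 and 18.3 CPM) by 0.55, with -0.17 and -0.21 under the offset, neither called. Groups did not overlap for any of the 3. ZNF28 and ZNF468, which overlap each other, were both lower, at -0.48 and -0.37 (-0.10 and -0.03 with the offset, not called). ZNF468 shares 55.8% of its 50-base stretches, mostly with ZNF320, whose value was -0.24 (adjusted p = 0.473).

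In clusters A, B, C, E and F no tested gene was called higher. In cluster B 4 of 13 fell (30.8%, median -0.30) and in cluster C 4 of 15 (26.7%, median -0.23, and -0.059 without the second shCTRL library). In cluster E 1 of 5 fell (20%) and in cluster F 1 of 7 (14.3%). Cluster A had no call among 4 (median -0.11, and 0.033 without the second shCTRL library). Over all tested genes 24.5% fell and 24.2% rose. With the offset 1 of 13 was lower in cluster B (7.69%) and 1 of 7 in cluster F (14.3%). Clusters A, C and E then had no call, and no gene of these clusters was higher. Over all genes fitted 17.4% were lower and 11.8% higher. The highest value of these clusters, 1.24 for ZNF358 in cluster B, was not called (1.59, 0.433 and 2.58 against 3.18, 3.16 and 4.48 CPM, adjusted p = 0.0555; 0.38 with the offset), though its groups did not overlap. ZNF358 was singled out after its values were seen, and it shares 28.6% of its 50-base stretches with other genes. ZNF121 in cluster B had 54.7, 51.3 and 43.8 CPM in shCTRL and 35.6, 35.6 and 35.5 CPM in shFITM2 (-0.49, SE 0.09, adjusted p = 0.00151; -0.14 with the offset). ZNF441 in cluster C fell from 3.50, 5.30 and 3.40 CPM to 2.14, 2.36 and 2.71 CPM (-0.76, SE 0.24, adjusted p = 0.0209), a call lost without the second shCTRL library (-0.53) and without 2 of the shFITM2 libraries, and -0.31 with the offset (adjusted p = 0.329). ZNF791 (-0.36, adjusted p = 0.0150) and ZNF302 of cluster E (-0.34, adjusted p = 0.0294) lost their calls without 3 and 4 of the libraries, and with the offset they had -0.09 and 0.06. ZNF302 was also not called by the DESeq2 Wald test or with the replicate block. ZNF555 of cluster A had -0.53 and was not called (adjusted p = 0.105), its groups overlapping. It was called lower without the third shCTRL library (-0.73, adjusted p = 0.00484) and without the second shFITM2 library (-0.79, adjusted p = 0.0466), and had -0.32 with the offset.

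ZNF146 (chr19:36214602-36238774), the most abundant gene of the family, stood at 254, 259 and 212 CPM in shCTRL and 168, 175 and 181 CPM in shFITM2. Every knockdown library was below every control, with -0.47 on the log2 scale (SE 0.08, adjusted p = 0.000887) and -0.15 with the offset (SE 0.05, adjusted p = 0.0317). The call with the offset was lost without any of 5 libraries, with the centred offset and with length in the offset (adjusted p = 0.0563). ZNF507 (chr19:32345594-32387667), outside the clusters and overlapping no other tested gene, had 77.2, 79.7 and 75 CPM in shCTRL and 48.9, 49.4 and 49.8 CPM in shFITM2. The replicates were tight and the groups well apart, at -0.65 (SE 0.07, adjusted p = 7.45e-05) and -0.27 with the offset (SE 0.06, adjusted p = 0.00338).

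Near the end of the chromosome, ZNF544 (chr19:58228594-58277495) had the same fall in both fits. Its values were 28.8, 33.4 and 26.4 CPM in shCTRL and 19, 22.2 and 20.1 CPM in shFITM2, giving -0.53 (SE 0.11, adjusted p = 0.00241) and -0.54 with the offset (SE 0.10, adjusted p = 0.000974). Its calls and those of ZNF507 held whichever library was left out, but ZNF544 overlaps another tested gene, as does ZNF146. ZNF154, whose promoter is often methylated in tumours, had the largest fall, from 1.96, 1.78 and 1.06 CPM to 0.494, 0.403 and 0.590 CPM (-1.69, SE 0.39, adjusted p = 0.00413; -1.43 with the offset). It had only 7 to 37 reads per library and lies across from ZNF551, which has 21.6 times as many reads on the other strand. ZNF551 fell from 28.5, 27.2 and 24.3 CPM to 19.9, 17.5 and 20.2 CPM, at -0.47 (SE 0.10, adjusted p = 0.00309) and -0.28 with the offset (adjusted p = 0.0288). With the offset the call of ZNF551 was lost without any of 4 libraries and with the centred offset, and that of ZNF154 without 2. Whether the counting used strand is not given in the sources used here, so reads of this pair cannot be told apart.

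Cluster G was the cluster with the most genes called higher under the GC offset. In the group fit 2 of its 20 tested genes rose (ZNF575 and ZNF576) and 2 fell (ZNF223 and ZNF180), with a median of 0.20. That is 10% each, against 24.2% and 24.5% of all tested genes. With the offset 8 were higher (40%) and none lower, against 11.8% and 17.4% of all genes fitted, with a median of 0.36. The 8 were ZNF576, ZNF45, ZNF230, ZNF222, ZNF224, ZNF234, ZNF226 and ZNF227. The transcript GC of its tested genes was 42.7% at the median. In clusters B, C, E, F and H it was 43.5%, 43.1%, 43.4%, 41.5% and 41.4%. Their median log2 fold changes with the offset were -0.14, -0.01, 0.06, 0.17 and -0.02, in that order. Calls with the offset were 1 lower in cluster B, 1 lower in F, 1 higher in H and none in C and E. No test of a difference between clusters was made. The count of 8 ranged from 2 without the first shFITM2 library to 9 without the third shCTRL library, and the median from 0.33 to 0.46. Over all genes the offset called 1110 of 15004 higher without that shFITM2 library and 2334 of 15073 without that shCTRL library. With all libraries it called 1732 of 14635 higher.

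In CPM the libraries of the groups overlapped for 5 of the 8, the exceptions being ZNF576, ZNF45 and ZNF222, and of the 8 the group fit called ZNF576. ZNF224, a KRAB repressor first described on the aldolase A promoter, had 10.9, 10.4 and 12.2 CPM in shCTRL and 11.5, 10.0 and 12.7 CPM in shFITM2. The groups overlapped, at 0.03 (adjusted p = 0.852) and 0.38 with the offset (adjusted p = 0.0422), a call lost without any of 4 libraries, and 39.8% of its 50-base stretches occur in other genes. ZNF226 had 14, 19.1 and 16.4 CPM against 16.4, 16.9 and 20.8 CPM, at 0.12 (adjusted p = 0.481) and 0.46 with the offset (SE 0.12, adjusted p = 0.00847). ZNF230 had 4.34, 4.27 and 3.11 CPM against 5.00, 4.72 and 4.25 CPM, at 0.25 (adjusted p = 0.311) and 0.66 with the offset (SE 0.19, adjusted p = 0.0154). For both the groups overlap in CPM. ZNF45 had 9.91, 9.09 and 7.39 CPM against 10.2, 12.2 and 10.7 CPM, which do not overlap, at 0.33 (adjusted p = 0.0822) and 0.44 with the offset (adjusted p = 0.0220). ZNF576 (chr19:43596392-43601157) was called in both fits, from 17.9, 15.6 and 18.5 CPM to 24.3, 21.5 and 25.2 CPM (0.45, SE 0.11, adjusted p = 0.00542; 0.31 with the offset, adjusted p = 0.0233), the latter lost without any of 3 libraries. ZNF575 rose by 0.88 with 16 to 47 reads per library, but ETHE1, overlapping it on the other strand, has 24.3 times its reads, and its value with the offset was 0.31 (adjusted p = 0.487). ZNF223 had -1.08 and -0.85 with the offset (adjusted p = 0.118), with 7 to 31 reads per library. The largest fold change of the cluster, 1.71 for ZNF428, was not called (5.72, 3.79 and 16.8 against 32.6, 29 and 24 CPM, adjusted p = 0.0630).

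**Figure D5:**
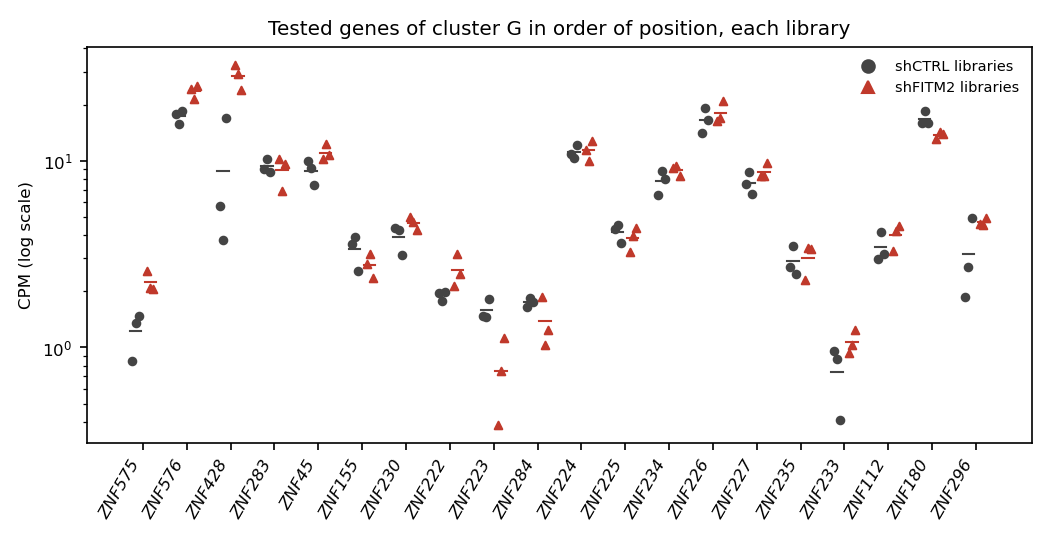
CPM in each library (logarithmic vertical axis) for the 20 tested genes of cluster G in order of position; horizontal bars are group means. The groups overlap for ZNF224, ZNF226, ZNF230, ZNF234 and ZNF227, which are called higher with the GC offset, and lie apart for ZNF576.

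Calls of neighbouring genes are given as a description. Among 141 pairs of adjacent tested genes within clusters, both genes fell in 12 pairs and both rose in 5, with no pair called in opposite directions, and the median absolute difference in log2 fold change was 0.32. With the offset the counts were 2, 4 and 1, and the median difference 0.28. Gene by gene, 24.5% of all tested genes fell and 24.2% rose, and with the offset 17.4% and 11.8%. Counts for adjacent pairs of other genes are not given here, so these pair counts have no background to be read against. Some neighbours, such as ZNF580 and ZNF581, also overlap, so their values are not independent.

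Members with a known function mostly showed values within the spread. ZNF274, a KRAB protein that binds the ends of zinc finger genes and brings SETDB1 to them, had 18.8, 18.2 and 18.2 CPM in shCTRL and 15.9, 17.2 and 16.9 CPM in shFITM2. Its groups did not overlap, but the value of -0.14 was not called (adjusted p = 0.246), and with the offset it was -0.32 (adjusted p = 0.0186), a call lost without any of 3 libraries and with the centred offset. ZNF350 (ZBRK1, a partner of BRCA1) had -0.38 (adjusted p = 0.232), ZNF331, often silenced in colorectal tumours, -0.33 (adjusted p = 0.171), ZNF675 (an inhibitor of TRAF6 signalling) -0.41 (adjusted p = 0.283) and ZNF649 -0.15 (adjusted p = 0.769). For all 4 the libraries of the groups overlapped, and without the third shCTRL library ZNF350 (-0.56) and ZNF331 (-0.47) were called lower. With the offset the 4 had -0.10, -0.21, 0.08 and 0.16, in the order named, none called. ZNF568 had no read, and ZNF304 at most 2 reads in a library.

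The corepressor genes through which KRAB proteins act were all tested, 26 of 26. In the group fit 7 rose and 11 fell, with a median of -0.13, which is 26.9% and 42.3% of the list against 24.2% and 24.5% of all tested genes. With the offset 5 were higher (19.2%) and 6 lower (23.1%), against 11.8% and 17.4% of all genes fitted. TRIM28, the scaffold that binds KRAB and itself a chromosome 19 gene, had 777, 768 and 1017 CPM in shCTRL and 1018, 971 and 943 CPM in shFITM2. The third control alone lay among the knockdown libraries. Its value was 0.19 (SE 0.10, adjusted p = 0.144) and -0.51 with the offset (SE 0.04, adjusted p = 8.99e-07), so the direction depends on the fit, and without the third control the group fit called it higher at 0.33, as it did with no expression filter (0.20). SETDB1, which methylates histone H3 at lysine 9, had 32.1, 26.3 and 35.4 CPM against 30.8, 36.3 and 38.9 CPM, at 0.18 (adjusted p = 0.257) and 0.08 with the offset; it was called higher, at 0.27, without the third control.

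Of the other corepressors, CHD3, a helicase of the NuRD complex, rose from 79.7, 69.9 and 84.8 CPM to 143, 139 and 131 CPM (0.82, SE 0.08, adjusted p = 5.53e-05; 0.47 with the offset, adjusted p = 1.47e-05). DNMT3A, a de novo DNA methyltransferase, rose from 19.6, 20.1 and 19.8 CPM to 30.8, 31.0 and 33.7 CPM (0.68, adjusted p = 0.000174; 0.44 with the offset, adjusted p = 0.00121). TRIM33, a relative of TRIM28, fell from 122, 135 and 115 CPM to 79.4, 81.3 and 83.3 CPM (-0.61, adjusted p = 0.000146; -0.21 with the offset, adjusted p = 0.00482). CBX3, the HP1 gamma protein that reads H3 lysine 9 methylation, fell from 465, 518 and 432 CPM to 320, 313 and 320 CPM (-0.57, adjusted p = 0.000152; -0.19 with the offset, adjusted p = 0.00460). The groups were apart for all 4, and both fits gave the same direction.

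Set beside the zinc finger genes, ZNF genes of other chromosomes (216 of 265 tested) had 46 higher (21.3%) and 57 lower (26.4%), with a median of -0.12. With the offset 21 were higher and 21 lower (9.72% each). The other protein-coding genes of chromosome 19 (698 of 1223 tested) had 433 higher (62.0%) and 16 lower (2.29%), with a median of 0.57 and a median GC of 60.5%. With the offset these numbers were 116 (16.6%) and 124 (17.8%). Of the zinc finger genes 104 overlapped no other tested gene, and of these 20 fell (19.2%) and 3 rose (2.88%), with a median of -0.18. With the offset 8 of the 104 were higher (7.69%) and 6 lower (5.77%), with a median of 0.03. Over all tested genes 24.2% were higher and 24.5% lower, and with the offset 11.8% and 17.4%. No test of a difference between these lists was made.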

How the data were processed

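RNA-seq of 6 HT29 libraries (3 shCTRL, 3 shFITM2) was analysed from the raw read counts per gene that the authors deposited. Per the submitters' processing notes, featureCounts 1.5.0-p3, HISAT2 2.0.5, DESeq2 1.16.1 and StringTie 1.3.3b were used with hg19, in roles that are not stated. The sources used here give neither the strand setting nor the treatment of multiply mapped reads. Positions of all 58735 Ensembl genes in the table equal those of GENCODE 29 (GRCh38), which are printed. No label says that replicates came from separate cultures, so p-values measure only the spread between libraries, which may be technical.

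Tests used edgeR 4.0.16 (R 4.3.3) quasi-likelihood fits over the whole table, TMM, an expression filter (minimum count 10, minimum total 15) and Benjamini-Hochberg adjustment, called at an adjusted p under 0.05. For the GC offset, the log2 deviation of every library was smoothed against transcript GC (1 GENCODE transcript per gene, spline with 6 degrees of freedom) and the fitted value entered the model gene by gene. TPM used the table's gene lengths. Both fits were checked on simulated counts with and without a GC trend. Alternatives were DESeq2 size factors or library totals, other filters, DESeq2 1.42.0, limma-voom (limma 3.58.1), an adjusted p under 0.01, length in the offset, a 500 kb cluster split, the replicate block and each library left out.

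The rule for the members uses no measured value, but it and the lists were set with earlier results of these data known. Named genes are FITM2, the 8 largest called rises and falls (mean of at least 2 CPM, groups apart), genes called in both fits, the 8 highest TPM, the smallest p in each cluster, a fixed set with known roles, and 6 corepressors; other names were chosen after their values were seen. Protein sequences were not used here.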

Additional observations from a re-analysis of the deposited data

How the results depend on the processing

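Over 123 results, 618 of 684 values under other settings and 612 of 738 with a library left out were counted as unchanged. For a called gene this meant the same direction and side of the threshold. Uncalled values and medians near 0 could change sign and still count as unchanged. The median of cluster A did so, from -0.11 to 0.033 without the second shCTRL library. The counts of called genes rest on 3 libraries a group, and genes with few reads have wide errors. The cause of each change was not tested.

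With the GC offset in place of the group fit, chromosome 19 zinc finger genes called lower went from 36 to 10, corepressors called lower from 11 to 6, cluster G genes called higher from 2 to 8 and lower from 2 to 0, ZNF genes of other chromosomes from 46 to 21 higher and 57 to 21 lower, and other genes of chromosome 19 from 433 to 116 higher and 16 to 124 lower. The median log2 fold change of the family went from -0.16 to 0.034, and that of clusters B, C, D, E, F, G and H to -0.14, -0.012, 0.043, 0.064, 0.17, 0.36 and -0.022. Among the results compared, those of TRIM28 (-0.51), ZNF302 (0.064), ZNF784 (-0.25) and ZNF787 (-0.24) were counted as turned in direction.

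At an adjusted p under 0.01, 18 family members were lower. Among members overlapping no other tested gene, 3 were higher and 20 lower in the group fit, and 8 and 6 with the GC offset. Cluster G had 1 gene lower under DESeq2 size factors, no expression filter, the DESeq2 Wald test and limma-voom. The median of cluster F was -0.45 with no filter and -0.23 at a mean of at least 1 CPM, and splitting cluster I at 500 kb gave medians of 0.95 and -0.079. The summed ratio without the 5 highest genes was 0.973. The centred offset, chosen after seeing the data, gave 5 members lower, 11 ZNF genes of other chromosomes lower, 81 other genes of chromosome 19 lower, and medians of 0.23 for cluster F and 0.071 for cluster I.

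Leaving out a library gave these ranges, the first in the group fit and the second with the GC offset. Over all genes, calls in either direction ranged from 5338 to 9008 and from 2806 to 5620, against 7205 and 4274 with all libraries. Family members called higher ranged from 9 to 24 and from 5 to 17, and lower from 19 to 56 and from 3 to 14. Cluster G genes called higher ranged from 1 to 4 and from 2 to 9, and lower from 0 to 1 in the group fit. Corepressors called higher ranged from 4 to 9 and from 3 to 5. ZNF genes of other chromosomes ranged from 29 to 58 and from 8 to 26 higher, and from 36 to 73 and from 9 to 32 lower. Other chromosome 19 genes ranged from 75 to 180 higher with the offset, and lower from 9 to 22 and from 77 to 148. Medians ranged from -0.24 to 0.033 (group fit) in cluster A and from -0.33 to -0.059 (group fit) in cluster C. They ranged from -0.37 to -0.22 and from -0.16 to -0.051 in cluster B, from -0.29 to -0.14 and from -0.041 to 0.18 in cluster F, from 0.10 to 0.30 and from 0.33 to 0.46 in cluster G, and from -0.41 to -0.27 in cluster H (group fit).

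Replicate numbers gave no sign of pairing: same-numbered libraries had deviations correlated at -0.04, -0.01 and -0.07. Not every library correlated best with its own number. With 3 libraries a group, such correlations cannot show that the samples were unpaired. With the replicate number as a block, 13 members were higher and 30 lower (12 and 10 with the offset), and cluster G had 1 gene lower. The block also ended the calls of ZNF302 and, with the offset, ZNF524.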
